A study of Mus musculus with 22 samples.

Results

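A set of 10 choroid plexus genes was followed through 22 RNA-sequencing libraries of mouse brain and thymus. They were Ttr, Kl, Aqp1, Folr1, Kcnj13, Clic6, Otx2, Enpp2, Slc4a5 and Sostdc1, a list set by name from what is known of this tissue and chosen with earlier results of these libraries known, and all 10 were found among the 34585 entries listed in each of 3 count tables. The libraries came from 4 Tol and 4 WT cerebra, 2 Tol and 4 WT cerebella, and 4 Tol and 4 WT thymi of C57BL/6 mice. Tol mice are heterozygous for a transgene that encodes scrambled pieces of reporter proteins behind the ubiquitous CAG promoter, placed 3′ of Col1a1 in embryonic stem cells, and WT mice are littermates without it. The strain thus comes from 1 targeted insertion, and no animal received a treatment. The labels give no age, and the paper states a range in weeks for all its animals together. RNA was taken from frozen tissue. Whether whole organs or parts were used, and how the brain was dissected, is not described in the sources used here. The total was between 14543698 and 34776973 counts per library. The Tol transcript gave 448 to 4628 counts in the 10 Tol libraries and 0 to 2 counts in the 12 WT libraries, as the labels say.

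The choroid plexus is a fringe of epithelium that hangs in the brain ventricles and secretes cerebrospinal fluid. It has a plexus in each lateral ventricle, which lies inside the cerebrum, 1 in the third ventricle, and 1 in the fourth ventricle, which lies under the cerebellum. Its cells make a few messages in very large amounts, above all that of transthyretin, and they carry the pumps, channels and receptors that move salt, water, folate and hormones between blood and fluid. In bulk samples such as these, fewer cells of a type and less RNA per cell cannot be told apart.

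Where the genes begin is shown for 3 of the members that were highest in cerebellum WT 2 and WT 4 (the 250 bases before the start, RefSeq, GRCm38.p6). The window of Aqp1 ends at 55336298, before the gene start given below (55336432), which is from another annotation (GENCODE). Windows were at hand for 5 members, namely Kcnj13, Kl, Aqp1, Slc4a5 and Otx2. Capitals mark TATAAA, read as written on the gene's strand. It stood at position -29 from the start of Kcnj13 and was in neither other window shown. Over all 5 members it was in 2 of 8 windows, the other being a window of Otx2 (position -192). Of the 32851 windows of all genes, 7.59% held it.
Kcnj13, chr1:87394730-87394979, minus strand: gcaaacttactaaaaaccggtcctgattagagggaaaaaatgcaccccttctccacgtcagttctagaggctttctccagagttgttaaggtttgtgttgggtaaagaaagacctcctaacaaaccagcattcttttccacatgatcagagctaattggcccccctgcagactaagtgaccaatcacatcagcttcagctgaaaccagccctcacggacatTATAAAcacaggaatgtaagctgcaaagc
Kl, chr5:150952357-150952606, plus strand: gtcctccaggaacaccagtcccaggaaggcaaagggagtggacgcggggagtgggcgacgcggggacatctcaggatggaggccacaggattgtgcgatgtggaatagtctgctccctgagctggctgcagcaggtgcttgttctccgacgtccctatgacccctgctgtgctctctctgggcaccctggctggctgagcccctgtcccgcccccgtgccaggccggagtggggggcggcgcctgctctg
Aqp1, chr6:55336049-55336298, plus strand: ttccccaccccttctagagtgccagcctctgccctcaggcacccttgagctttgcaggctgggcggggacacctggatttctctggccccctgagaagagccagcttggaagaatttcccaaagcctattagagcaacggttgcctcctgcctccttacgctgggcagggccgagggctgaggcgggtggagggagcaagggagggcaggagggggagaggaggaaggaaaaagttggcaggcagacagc
The windows also differed in base composition, with 45.2% G and C in Kcnj13, 66.8% in Kl and 62% in Aqp1, beside a median of 52.4% over all windows. TAATCC, a motif bound by homeodomain proteins of the Otx family, was searched on both strands, where its other reading is GGATTA. It was in a window of 1 of the 5 members, Otx2 itself, and in 6.25% of all windows. Such a match is a description of letters and not of a bound site.

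The libraries were first checked against their labels. Summed over 8 genes of cerebellar neurons and progenitors (Pcp2, Car8, Cbln1, Gabra6, Zic1, Zic2, En2 and Calb1), the level in CPM (counts scaled to a common library total, with TMM factors) was 6223 in cerebellum Tol 1, 5077 in WT 1, 2480 in WT 2, 5801 in WT 3 and 5209 in WT 4. It was 311.5 in the library labelled cerebellum Tol 2, close to the cerebra (145 to 249.3). The same library had 253.2 CPM of Tcf7l2 and 88.3 CPM of Lhx9, genes of the thalamus and midbrain, and WT 1 had 123 and 30.6 CPM. In the other 4 cerebella Tcf7l2 was between 3.89 and 5.69 CPM. By its cerebellar genes the library labelled cerebellum Tol 2 goes against its label. The cerebellar pattern, the likeness to Ttr, the ratios to Ttr and the genotype comparison are therefore also given without it. The 8 forebrain genes summed to 453.7 to 558.8 CPM in the cerebra and 8.27 to 26.3 CPM in the cerebella.

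Choroid plexus genes were very high in 2 of the 6 cerebella, WT 2 and WT 4, and low in the other 4. The 10 genes together made up 0.737% of all counts in WT 4 and 0.253% in WT 2, against 0.0165% to 0.0363% in the other cerebella, 0.0202% to 0.0301% in the cerebra and 0.00908% to 0.0155% in the thymi. WT 2 and WT 4 were the highest cerebellum libraries for 9 of the 10 genes, where 6.37% of 17130 brain genes showed that order. For 6 genes (Ttr, Kl, Aqp1, Folr1, Slc4a5 and Sostdc1) each of the 2 was over 4 times every other cerebellum, against 0.193% of brain genes. Without the library labelled Tol 2 the first count was 10 of 10 (13.4% of genes) and the second 8 of 10 (0.607%). As the list was chosen with earlier results known, these counts are a description. Both libraries are WT, and neither genotype nor any label sets them apart from WT 1 and WT 3.

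**Figure D1:**
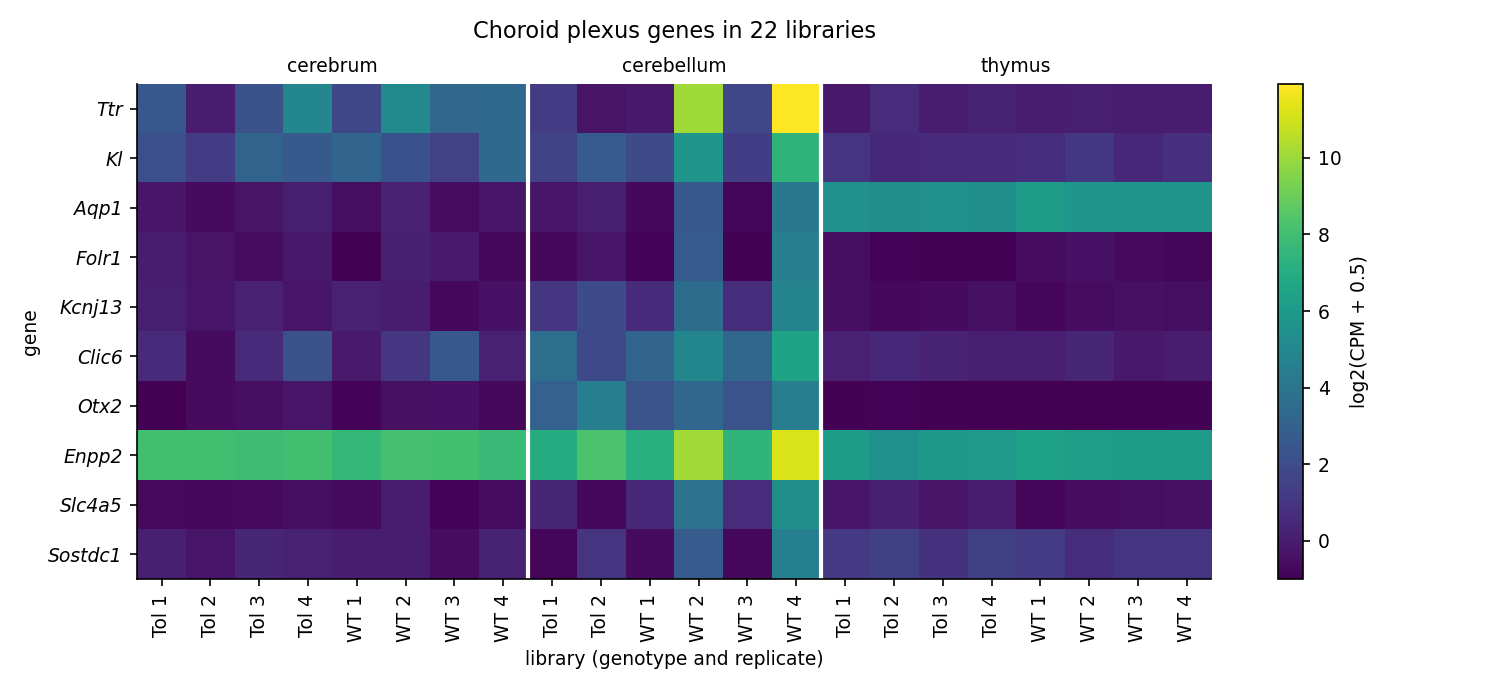
Level of each of the 10 genes (rows) in each of the 22 libraries (columns, by organ, genotype and replicate), as log2(CPM + 0.5) on a colour scale. Cerebellum WT 2 and WT 4 stand out for most rows, Otx2 is raised in all 6 cerebella, Enpp2 is high in every brain library, and Aqp1 is the gene that is higher in thymus than in every brain library.

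Of the secreted products, Ttr encodes transthyretin, the carrier of thyroxine and of retinol-binding protein in cerebrospinal fluid (ENSMUSG00000061808, chromosome 18, 20665280 to 20674321, GRCm38). Its counts were 52 and 8 in cerebellum Tol 1 and Tol 2, and 11, 27520, 81 and 100160 in WT 1 to WT 4. In CPM, WT 2 had 1073 and WT 4 had 3885, where the other 4 cerebella had 0.298 to 2.82. WT 4 was 1380 times and WT 2 381 times the highest of these, and among 17130 genes Ttr had the largest spread over the cerebella, with an SD of 5.21 on the log2 scale within genotype. Enpp2 (ENSMUSG00000022425, chromosome 15, 54838901 to 54952892) encodes autotaxin, which makes lysophosphatidic acid and is also made by oligodendrocytes. It had 129, 304, 145, 1119, 173 and 2373 CPM in Tol 1, Tol 2 and WT 1 to WT 4. This gene had a substantial level in every cerebellum, so that WT 4 was 7.80 times and WT 2 3.68 times the highest other. Sostdc1 (ENSMUSG00000036169, chromosome 12, 36314139 to 36318452), a secreted antagonist of BMP and Wnt signals, had 2, 39, 4, 163, 3 and 594 counts in the same order. Its highest value outside WT 2 and WT 4 was that of the library labelled Tol 2.

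Among receptors and the membrane proteins of fluid transport, Kl encodes klotho, the co-receptor of FGF23 (ENSMUSG00000058488, chromosome 5, 150952607 to 150993817). Its counts were 71 and 167 in the Tol cerebella and 93, 1378, 58 and 4429 in WT 1 to WT 4, or 27.6 times the highest other level in WT 4. Folr1 (ENSMUSG00000001827, chromosome 7, 101858331 to 101870788) encodes the folate receptor that carries folate into the fluid. It had 3, 9, 1, 163, 1 and 574 counts, hardly any outside WT 2 and WT 4. Aqp1 (ENSMUSG00000004655, chromosome 6, 55336432 to 55348555), the water channel of the epithelium, had 9, 15, 3, 143, 2 and 474 counts. Slc4a5 (ENSMUSG00000068323, chromosome 6, 83219828 to 83304945), a sodium bicarbonate cotransporter, had 21, 3, 23, 374, 30 and 1073 counts. These 3 genes shared the pattern, with WT 4 between 32.9 and 66.3 times the highest other cerebellum. Kcnj13 (ENSMUSG00000079436, chromosome 1, 87386363 to 87394729), an inwardly rectifying potassium channel, had 41, 96, 27, 290, 32 and 696 counts. Clic6 (ENSMUSG00000022949, chromosome 16, 92485736 to 92541243), of the chloride intracellular channel family, had 324, 85, 234, 776, 260 and 2284 counts. Kcnj13 and Clic6 were thus clearly counted in every cerebellum, and WT 4 was 7.54 and 7.28 times the highest other. Kcnj13 shares 623 exon bases with Gigyf2 on the opposite strand, and whether strand was used in counting is not given in the sources used here, so that its low values are uncertain.

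Otx2 (ENSMUSG00000021848, chromosome 14, 48657677 to 48673819) encodes a homeodomain factor that the choroid plexus needs to form and that the midbrain and cerebellar progenitors also use. It was the exception. Its counts were 209 and 595 in Tol 1 and Tol 2 and 118, 231, 127 and 587 in WT 1 to WT 4. The library labelled Tol 2 had 22.2 CPM, beside 22.8 CPM in WT 4 and 9.01 CPM in WT 2. The thalamus and midbrain genes of that library are given above, and their part in its Otx2 level was not tested.

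Per kilobase of exon, the order of the genes in WT 4 ran from Ttr (3276 CPM per kb) and Enpp2 (410.5) through Clic6 (22.6), Kcnj13 (21.3), Kl (18.4), Sostdc1 (12.9), Folr1 (9.69), Slc4a5 (7.17) and Aqp1 (7.0) to Otx2 (5.40). In WT 2 the order was the same except within 2 neighbouring pairs, with Kcnj13 (8.91) above Clic6 (7.73) and Otx2 (2.13) above Aqp1 (2.12). The members were therefore compared as ratios to Ttr within each of these libraries, which needs no scaling between libraries. WT 2 had 5.92 and WT 4 5.73 Folr1 counts per 1000 Ttr counts, a ratio of 0.968 (95% interval from counting error alone 0.813 to 1.15). The interval also held 1 for Sostdc1 (ratio 1.0, 0.842 to 1.19) and Aqp1 (0.911, 0.755 to 1.10). It did not for Kl (0.883, 0.830 to 0.940), Clic6 (0.809, 0.745 to 0.878), Slc4a5 (0.788, 0.700 to 0.887), Otx2 (0.698, 0.599 to 0.814), Kcnj13 (0.659, 0.575 to 0.757) and Enpp2 (0.586, 0.574 to 0.597), all with less per Ttr in WT 4. These intervals compare 2 libraries and hold no spread between mice.

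The ratios were also taken above the level that a gene had in the other cerebella. After the level of 1 of the other 4 cerebella was subtracted, the excess of Ttr in WT 4 was 3.62 to 3.63 times that in WT 2, whichever library was subtracted. The same ratio was 3.52 to 3.64 for Folr1, 3.28 to 3.49 for Kl, 3.33 to 3.55 for Aqp1, 3.66 to 4.40 for Sostdc1 and 3.15 to 4.23 for Clic6. It was 2.87 to 3.00 for Slc4a5, 2.53 to 3.03 for Kcnj13 and 2.27 to 2.54 for Enpp2, and for Otx2 it ran from -0.04 to 12.9, as the library labelled Tol 2 lay above WT 2. Without that library the ratio was 3.996 to 12.9 for Otx2, 3.73 to 4.225 for Clic6 and 3.66 to 3.69 for Sostdc1.

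Genes of neighbouring cells were looked at in the same libraries. Of 30 other choroid plexus genes, 26 were highest in WT 2 and WT 4, and 14 passed the 4-fold mark (Calml4, Cldn2, Kcne2, Abca4, Trpv4, 1500015O10Rik, F5, Steap1, Krt18, Krt8, Car12, Lmx1a, Wfdc2 and Drc7). With 6 members, these were 20 of the 33 genes in all that did. The list of other choroid plexus genes, too, was chosen with earlier results known, so this overlap is a description. Of 7 pineal and pituitary genes, 1 also passed, Prl, with 4.68 CPM in WT 2, 0.543 in WT 4 and at most 0.0746 in the other cerebella. Of 12 genes of ependymal cells, the ciliated lining of the ventricles, 7 were highest in WT 2 and WT 4 and 0 passed 4-fold. Foxj1, a regulator of motile cilia, had 21.1 and 15.9 CPM there, but 15.1 CPM in the library labelled Tol 2. The summed level of the ependymal genes was 67.2 and 78.3 CPM in WT 2 and WT 4 and 27.7 to 40.7 CPM in the other cerebella. None of 11 genes of leptomeninges and fibroblasts, 8 of endothelium and 8 of oligodendrocytes were highest in both. Without the library labelled Tol 2, WT 2 and WT 4 were highest for 26 of the 30 other choroid plexus genes, 11 of 12 ependymal genes, 8 of 8 oligodendrocyte genes, 1 of 11 leptomeningeal genes and 0 of 8 endothelial genes (13.4% of all genes). In that set 15 of the other choroid plexus genes, 6 of the ependymal genes, 2 of the 7 pineal and pituitary genes and 0 of the oligodendrocyte genes passed 4-fold (0.607% of all genes). WT 2 stood apart in another way, with 15960 CPM summed over the oligodendrocyte genes (4424 to 9022 CPM in the other 5) beside its lower sum of cerebellar genes. The part of these levels in the choroid plexus result was not tested.

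**Figure D2:**
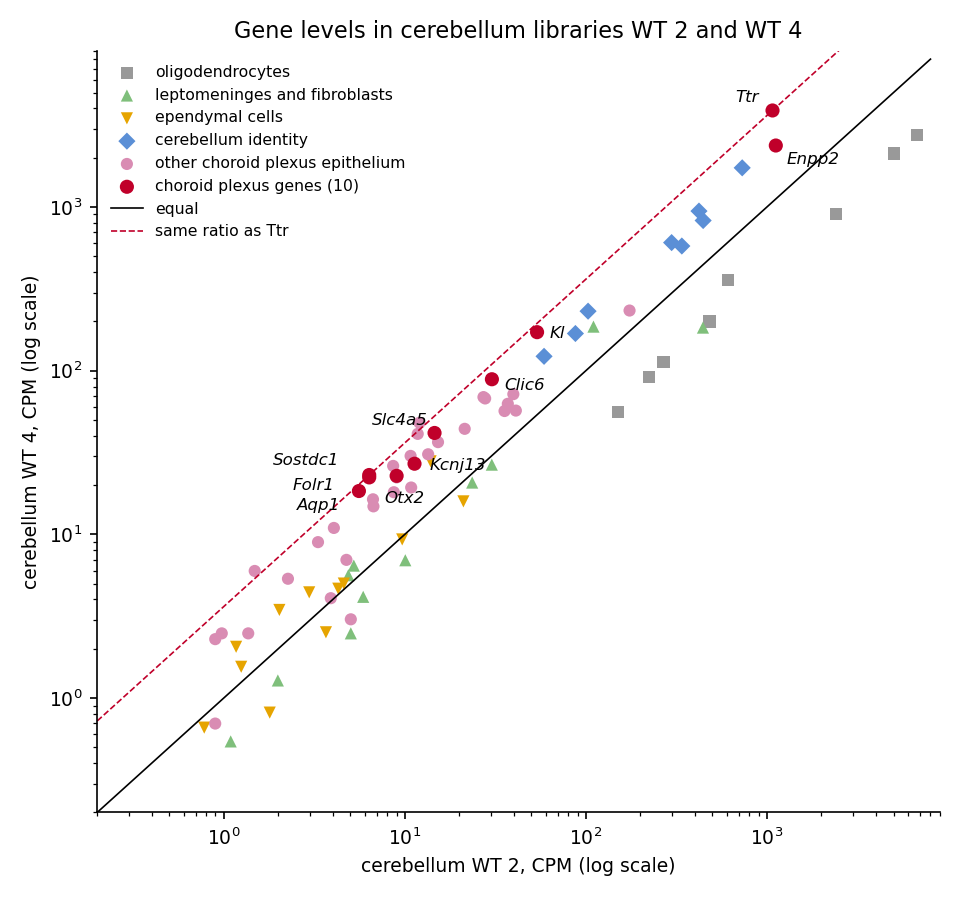
CPM of single genes in cerebellum WT 4 (vertical) against WT 2 (horizontal), both on log scales, with points coloured by gene list, a solid line of equality and a dashed line at the ratio of Ttr. Kl, Aqp1, Folr1 and Sostdc1 lie near the line of Ttr, Enpp2 and Kcnj13 below it, and oligodendrocyte genes lie below equality.

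The question of whether these genes rise and fall together was then asked of all 14 brain libraries. With the mean of each organ subtracted from log2(CPM + 0.5), 8 of the 9 other members had r of at least 0.8 with Ttr, as did 0.514% of 17129 genes. The values rest on WT 2 and WT 4 and are given with no p. Without the library labelled Tol 2, all 9 were at 0.8 or more, as were 1.06% of genes. The closest genes were Mfrp (0.96), Kcne2 (0.95), Slc4a5 (0.95), Krt18 (0.94), F5 (0.94), Aqp1 (0.93), Prr32 (0.93), Sgms2 (0.93), Calml4 (0.93), Krt8 (0.93), 1500015O10Rik (0.92), Wfdc2 (0.92), Folr1 (0.92), Iqub (0.92) and Trpv4 (0.92). The first 50 held 6 members, 16 of the 30 other choroid plexus genes and 1 gene of the ion transport list, the chloride cotransporter Slc12a2. They held 0 genes of the ependymal, leptomeningeal, endothelial and oligodendrocyte lists. As all these lists were chosen with earlier results known, the counts are a description. Otx2 was 1605th (r = 0.42), and 155th (r = 0.81) without the library labelled Tol 2. Within the 6 cerebella alone the libraries fall into separate clusters, so no r is given there and the relation cannot be tested.

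The cerebra, which have their own plexuses, showed far lower levels. Ttr had 120, 10, 91 and 413 counts in Tol 1 to Tol 4 and 60, 604, 165 and 184 in WT 1 to WT 4, or 0.488 to 35.8 CPM. The genotypes overlapped, with a Tol and a WT library at the top. Its SD of 1.73 (log2, within genotype) was the 36th largest of 17130 genes, and that of Clic6, 1.17, the 116th. Clic6 had 22, 3, 21, 57, 9, 26, 98 and 12 counts in the same order. Kl had 40 to 183 counts and Enpp2 3593 to 5768, the steadiest member. The other 6 members had at most 18 counts in any cerebrum. A count of 0, for Folr1 in WT 1 and Otx2 in Tol 1, allows up to 0.148 and 0.132 CPM (3 counts, counting error only).

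Over the 8 cerebra, 1 of 9 members had r of at least 0.8 with Ttr, beside 0.595% of genes. This was Aqp1, at 3 to 11 counts (r = 0.84, exact permutation p = 0.0105, adjusted over 9 members 0.0949; rho = 0.81, exact permutation p = 0.0218, adjusted 0.196). Without WT 2 and Tol 2, the libraries farthest from the median of Ttr, its r was 0.69. Clic6 had r = 0.70 (rho = 0.71) and Slc4a5 0.67 (rho = 0.67), with exact permutation p of 0.0504 and 0.0691 and both at 0.207 after adjustment. Without those 2 libraries their r was 0.70 and 0.41. The remaining 6 were between -0.17 for Kcnj13 and 0.51 for Otx2, and none of the 9 passed 0.05 after adjustment. Of these, Folr1, Kcnj13, Otx2 and Sostdc1 had at most 18 counts, and at that depth a weak r is no finding, whereas Kl (r = 0.25) and Enpp2 (r = 0.29) were well counted. The genes nearest to Ttr in the cerebra, such as Zcchc9 (0.99), were in none of the lists.

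**Figure D3:**
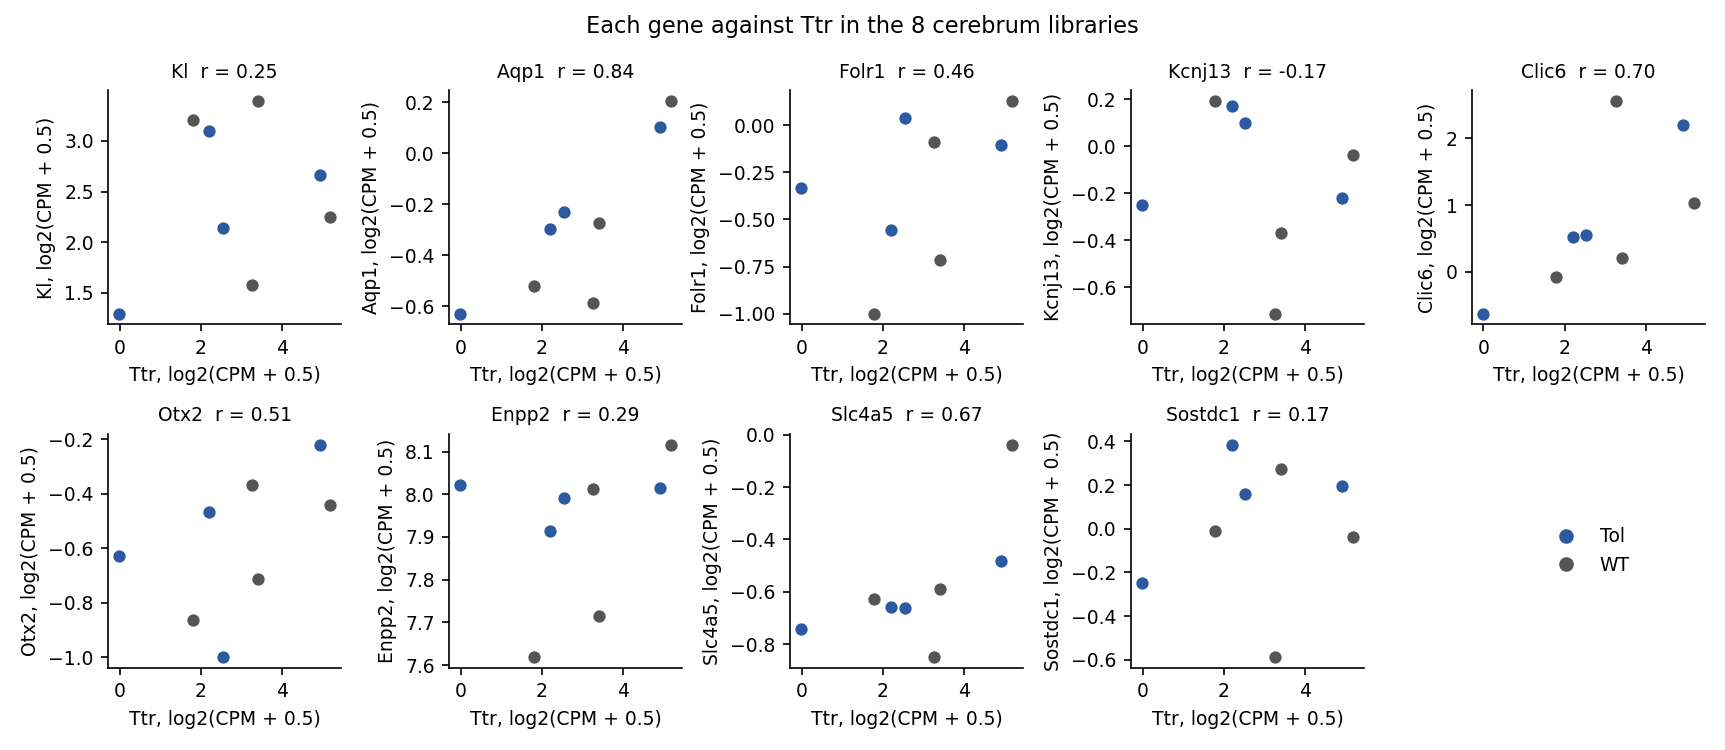
Each of the 9 other genes against Ttr in the 8 cerebra, both as log2(CPM + 0.5), with Tol in blue and WT in grey and Pearson's r in each title. Only Aqp1 reaches r = 0.84, over a narrow range of levels, and Tol and WT points are mixed.

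Outside cerebellum WT 2 and WT 4, Kl and Enpp2, which were well counted in every brain library, were not in the proportion to Ttr seen in WT 4. In each of the other 4 cerebella every member had more counts than its Ttr count and that proportion give, at the least 2.15 times as many for Folr1, 34.6 times for Slc4a5 and 267.5 times for Otx2. The value of Folr1 is 1 count where 0.464 were given (cerebellum WT 3). In cerebrum WT 2, Slc4a5 had 8 counts where 6.47 were given and Otx2 4 where 3.54 were. Such low counts cannot tell a difference in proportion from counting error. In the cerebra the median was 1.93 times for Slc4a5, 2.46 times for Otx2, 5.28 times for Folr1 and 62.6 times for Enpp2, and single libraries lay below 1 for Slc4a5, Folr1 and Otx2. The log2 ratio of each member to Ttr was compared between the 6 cerebella and the 8 cerebra by exact permutation over libraries, with 0.5 added to both counts. Otx2 had the largest difference, 5.05 higher in cerebellum (mean -0.36 ± 5.57 against -5.41 ± 1.97; SD, n = 6 and 8; exact two-sided permutation p = 0.0383, adjusted 0.297), and 0 of 9 passed after adjustment. Without the library labelled Tol 2 the difference of Otx2 was 3.75 (exact permutation p = 0.0917, adjusted 0.563), and again 0 of 9 passed.

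WT cerebellum was then set against WT cerebrum in 1 edgeR quasi-likelihood fit of the 14 brain libraries, which asks where in the brain samples the plexus genes are higher. All 10 members were called higher in cerebellum (Benjamini-Hochberg adjusted p from 0.000105 to 0.0328), beside 46.9% of 17130 genes called in either direction and 22.9% called higher. The log2 fold changes ran from 2.02 (SE 0.70) for Enpp2 to 6.43 (SE 2.13) for Ttr. For 6 of the 10, among them Ttr, the 2 groups of 4 libraries overlapped. The other 4, Kcnj13, Clic6, Otx2 and Slc4a5, were higher in every WT cerebellum than in any WT cerebrum, as were 21.5% of genes. In all 8 cerebra Kcnj13 had 2 to 14 counts, Slc4a5 1 to 8 and Otx2 0 to 5, against 27, 3 and 118 at the lowest in the 6 cerebella. With the replicate number as a block, Kcnj13, Clic6, Otx2 and Slc4a5 were the only 4 of the 10 called (6616 of 17130 genes were). The labels do not say that these numbers mark mice.

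Without WT 2 and WT 4 the picture split. The 2 libraries were left out after their values were seen and from the cerebellum alone, which lowers the cerebellum level of the members by construction, so the values that follow are a description of the remaining libraries. Otx2 kept a log2 fold change of 4.71 (SE 0.67, edgeR adjusted p = 0.000587), Slc4a5 2.18 (SE 0.70, adjusted p = 0.0299) and Kcnj13 1.49 (SE 0.53, adjusted p = 0.0451), and these 3 of 10 were called (40.2% of all genes). Clic6 was at 2.16 (SE 1.01, adjusted p = 0.113). The other 6 turned to lower in cerebellum, none of them called. Ttr was at -3.14, Folr1 at -2.76, Sostdc1 at -1.81, Aqp1 at -1.80, Kl at -1.20 and Enpp2 at -0.56. Without WT 4 alone, 4 members were called (6941 of 17032 genes were), and without the library labelled Tol 2 all 10 (8861 of 17574). Leaving out cerebrum WT 1, WT 2, WT 3 or WT 4 left 4, 7, 5 and 5 members called. Of all genes, 7217 of 17118, 7152 of 17120, 7186 of 17111 and 7199 of 17110 were then called.

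**Figure D4:**
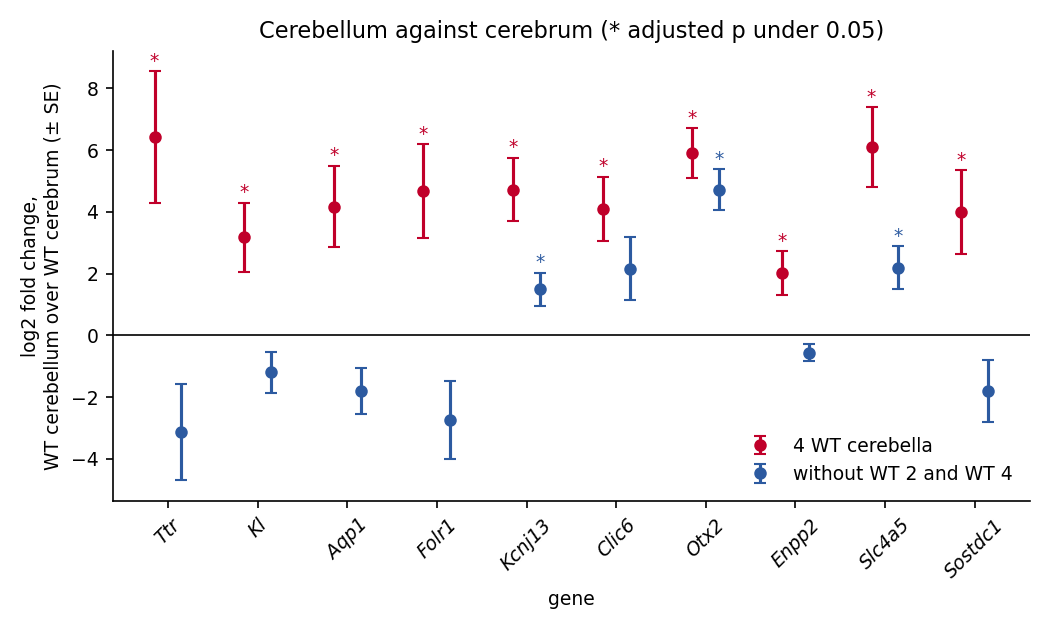
Log2 fold change of WT cerebellum over WT cerebrum for the 10 genes with SE, from the fit with all 4 WT cerebella (red) and from the fit without WT 2 and WT 4 (blue), with asterisks for an edgeR adjusted p under 0.05. All 10 red points are above 0, and 6 of the blue points are below it.

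In the same contrast, 22 of the 30 other choroid plexus genes were higher in cerebellum and 1 lower (median log2 fold change of the list 2.39, over all genes 0.02). Cldn2, a claudin of the leaky tight junctions of this epithelium, was at 6.00, Col9a3 at 2.17 and Rdh5 at 2.42. Slc5a5, the iodide transporter, was the 1 that was lower (-2.16). Without WT 2 and WT 4, 5 of 23 tested were higher (Tmem72, Cldn2, Col9a3, Rdh5 and Slc29a4) and 3 lower (Slc5a5, Car12 and Slc16a8), where 40.2% of all genes were called. Of 14 transporters and pumps that serve fluid secretion in many cells, 5 were higher (Atp1b2, Slc4a4, Slc12a2, Slc4a2 and Kcna1) and 1 lower (Kcna3). Of 20 tested receptors and partners of the members' products, 5 were higher and 6 lower. Rbp4, the retinol-binding protein that transthyretin carries, was at -3.09, and the thyroid hormone receptor Thrb at -2.39, whereas the klotho partner Fgfr1 was at 1.42 and Bmp6 at 1.54. Of the neighbouring cells, 3 of 12 ependymal and 4 of 11 leptomeningeal genes were higher, and 0 of 8 endothelial and 0 of 8 oligodendrocyte genes were called. These counts are to be read against the 22.9% of all genes called higher, near which the ependymal genes (3 of 12) and the partners (5 of 20) lay.

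Tol and WT mice were compared within each organ, the question the libraries were made for. None of the 5 members tested in cerebrum was called by edgeR (0.0% of 15596 genes were; 1506 genes and 0 members had an unadjusted p under 0.05, and DESeq2 called 184 genes and 0 members). The log2 fold changes were -0.59 (SE 1.0) for Ttr, -0.45 (SE 0.94) for Clic6, -0.37 (SE 0.50) for Kl, 0.11 (SE 0.11) for Enpp2 and 0.39 (SE 0.42) for Sostdc1. The other 5 did not pass the filter on low counts.

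In cerebellum 0 of 10 were called (0.0% of 16662 genes; 527 genes and 0 members had an unadjusted p under 0.05, and DESeq2 called 10 genes and 0 members). The members with an unadjusted p under 0.05 were 6 of 10 by DESeq2 (656 of 16662 genes) and 9 of 10 in a fit of all 22 libraries (2206 of 18946 genes), with 0 called in either. WT 2 and WT 4 are both in the WT group, and 9 fold changes were negative with wide errors. Ttr was at -10.12 (SE 4.43, adjusted p = 0.957), Slc4a5 at -5.01 (SE 2.15) and Folr1 at -4.98 (SE 2.75). Otx2 was at 0.56 (SE 0.79) and at -0.40 without the library labelled Tol 2. Without that library all 10 fold changes were negative and 0 were called, with Ttr at -9.34 (SE 6.01), Sostdc1 at -6.57 (SE 4.19) and Clic6 at -1.52 (SE 1.47). Without WT 2 and WT 4, 7 members were tested and 0 called, with Ttr at -0.55 (SE 1.31). Whether the Tol effect differed between cerebellum and cerebrum was tested as an interaction. By edgeR 0 of 10 passed (0.0% of 17130 genes; 1042 genes and 1 member had an unadjusted p under 0.05, and DESeq2 called 7 genes and 0 members). The difference was -9.52 for Ttr (SE 3.67, adjusted p = 0.811) and 0.54 for Otx2. Members with an unadjusted p under 0.05 numbered 7 by DESeq2 (1097 of 17130 genes) and 5 in the fit of all 22 libraries (1454 of 18946). They numbered 6 without cerebellum WT 1 (1139 of 17084 genes) and 7 without cerebellum WT 3 (753 of 17060). Both omissions removed a WT cerebellum low in most of these genes and kept WT 2 and WT 4. Again 0 members were called in each of these settings.

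The thymus has no choroid plexus, and the members there served as a background. Ttr had 8 to 19 counts, Folr1 0 to 7, Kcnj13 1 to 8, Slc4a5 1 to 12 and Otx2 0 to 1, and these 5 did not pass the filter on low counts. Clic6 had 7 to 22, Kl 15 to 48 and Sostdc1 20 to 58 counts. Aqp1 was the exception, with 762 to 1596 counts, or 41.9 to 67.8 CPM (scaled within the thymus), above every brain library. It is also a gene of red blood cells and of endothelium outside the brain. Enpp2 had 813 to 2287 counts, 44.7 to 82.2 CPM, below all 14 brain libraries.

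Between genotypes Aqp1 was lower in Tol thymus, with 46.6, 41.9, 44 and 42.2 CPM in Tol 1 to Tol 4 and 67.8, 55.0, 54.2 and 50.2 CPM in WT 1 to WT 4. The groups did not overlap, as for 11.8% of 16248 genes. Markers of other cells moved with it in part. The endothelial list summed to between 195.5 and 204.1 CPM in the Tol thymi and between 198.1 and 202.6 in the WT thymi. Its member Cdh5, the cadherin of endothelial junctions, was at 16.3, 14.5, 16.5 and 15.2 CPM in Tol and 22, 20.6, 20.9 and 17.2 CPM in WT, without overlap. Flt1 did not overlap either (6.43 to 8.31 CPM in Tol, 8.76 to 10.7 CPM in WT). Pecam1, the highest gene of the list, lay the other way with overlap (145.6 to 161.4 CPM in Tol, 141.5 to 151.6 CPM in WT). Cldn5, Ly6c1, Kdr and Tek overlapped, and Slco1a4 was at or near 0. The list of leptomeninges and fibroblasts summed to between 192.9 and 282.5 CPM in the Tol thymi and between 260.9 and 414.4 in the WT thymi (median log2 fold change of 10 tested genes -0.31, over all genes 0.01). None of the 7 endothelial and 10 fibroblast genes tested was called, and their part in the level of Aqp1 was not tested. The log2 fold change of Aqp1 was -0.38 (SE 0.09, unadjusted p = 0.00129, adjusted p = 0.0819 by edgeR), short of the threshold. Enpp2 had 66.7, 44.7, 58.2 and 61.1 CPM in Tol and 82.2, 74.2, 69.2 and 64.7 CPM in WT, which overlap (log2 fold change -0.33, SE 0.11, edgeR adjusted p = 0.127). In all, 0 of 5 members tested were called (0.0985% of 16248 genes; 3965 genes and 2 members had an unadjusted p under 0.05). DESeq2 called Aqp1 (adjusted p = 0.00714), and without thymus Tol 1 edgeR called Aqp1 (adjusted p = 0.018) and Enpp2 (0.0344). In DESeq2's fit 1266 genes were called, and without Tol 1 2978, so these settings called far more of all genes. Kl was at -0.18, Clic6 at 0.29 and Sostdc1 at 0.33. Slc4a5, which did not pass the filter, had 6 to 12 counts in Tol and 1 to 7 in WT. In CPM this was 0.290 to 0.604 in Tol and 0.0557 to 0.243 in WT, without overlap. Without the filter its log2 fold change was 1.32 (SE 0.48, edgeR adjusted p = 0.181).

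**Figure D5:**
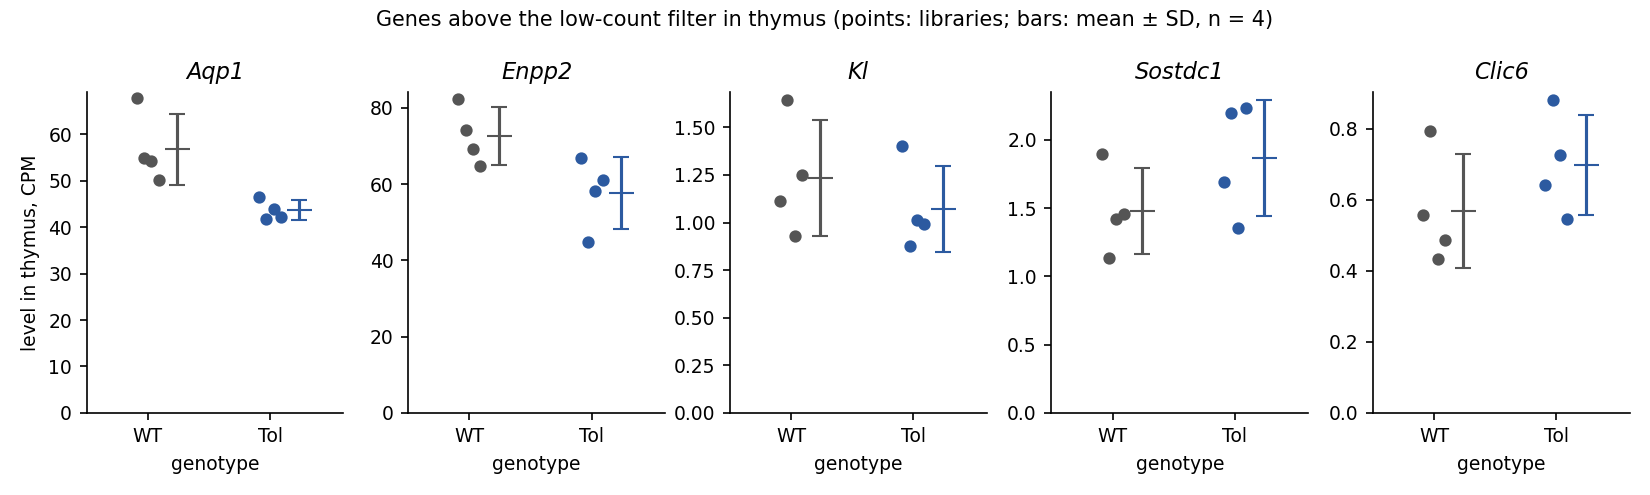
CPM in thymus of the 5 genes that passed the filter on low counts, WT in grey and Tol in blue, with a point per library and the mean ± SD (n = 4) beside them, on axes from 0. Aqp1 ranges from 41.9 to 46.6 in Tol and from 50.2 to 67.8 in WT, without overlap, and the other 4 genes overlap.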

How the data were processed

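RNA-sequencing was performed on frozen cerebrum, cerebellum and thymus (stranded poly(A) libraries). Per the submitters' notes, the authors quantified reads with Salmon 0.14.1 against GRCm38 transcripts plus the Tol sequence. What they deposited are 3 tables of expected counts (estimated counts) for each gene, without normalization and already rounded, since 0 values had a decimal part. No column was left unused (0). How transcripts were summed, and whether strand was used, is not given in the sources used here. Groups follow the submitters' labels.

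From the deposited counts, genes were tested in R 4.3.3 with edgeR 4.0.16 (TMM, filterByExpr, quasi-likelihood F test, Benjamini-Hochberg over all genes, threshold 0.05; SE as the log2 fold change over the root of F). Each organ was fitted alone, and the 14 brain libraries together for the organ contrast and interaction. CPM is TMM-scaled over the brain or the thymus libraries, so thymus and brain levels are set side by side without a test. Correlations used exact permutation of log2(CPM + 0.5), adjusted over the 9 cerebrum correlations only, because none was computed in the cerebellum. Positions are from the GENCODE annotation of GRCm38, which held 34530 of 34585 entries. The members, and the lists of other genes, were chosen with earlier results of these data known. All 10 members are named; of other lists, at most 4 genes with the lowest p among those called or the defining genes, and the 15 genes likest Ttr. Cldn2, Slc5a5, Kcna1, Kcna3, Bmp6, Zcchc9, the endothelial genes, the thalamus and midbrain genes, the genes that passed 4-fold and those called without WT 2 and WT 4 were named outside that rule, after their values were seen.

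No pair of libraries of a group was identical or differed by less than counting noise (chi-square over its degrees of freedom was 5.28 to 223.5). On simulated counts the organ contrast called 52.6% of 2-fold and 85.6% of 4-fold changes, and the cerebellum comparison 0% and 64.9%. The changed genes were drawn at random from those that passed the filter. In spread over the cerebella the members lay between the 96.2 and 99.99 percentiles of genes, so these shares do not describe them. The biological coefficient of variation was 16.6% in cerebrum, 33.2% in cerebellum and 11.2% in thymus. The paper gives 4 Tol and 4 WT mice for the organs sequenced, so that organs may share mice. The labels do not say which organs came from 1 mouse. Apart from the replicate block, the fits across organs treated the libraries as independent. The p-values measure the spread between these samples. Alternatives were DESeq2's size factors, DESeq2 1.42.0, 2 other filters on low counts, a replicate block, 1 fit of 22 libraries, other pseudocounts, and leaving out each library. Leaving out cerebellum WT 2 and WT 4 together, and leaving cerebellum Tol 2 out of the library pattern and the likeness to Ttr, were added after seeing the data.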

Additional observations from a re-analysis of the deposited data

Results flagged for a closer look

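In each organ and genotype with 4 libraries, the highest or lowest library of each member was compared with its nearest neighbour by Dixon's ratio. This was done for 50 groups, where chance alone marks about 1 in 20, and 2 were marked. Ttr in cerebrum Tol 4 was at 29.7 CPM (413 counts), with the next Tol cerebrum at 5.28 CPM (120 counts). Otx2 in thymus WT 4 was at 0.0348 CPM, which is a single count where the other 3 libraries had 0, and at that depth no difference can be seen. The 2 high WT cerebella were not marked, since the ratio looks for a single library apart from the rest.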

How the results depend on the processing

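Of 499 recomputed log2 fold changes of single members, 449 kept their direction and their side of the threshold, 33 lost the call of cerebellum over cerebrum, 3 gained a call and 14 changed sign. The number of members called in that contrast was 10 (8031 of 17130 genes were). It was 2 with at least 10 counts in every library (7186 of 14066 genes), where only Kl and Enpp2 could be tested. Without cerebellum WT 2 and WT 4 it was 3 (6780 of 16885 genes). With 1 library left out it was between 4 and 10 (6902 to 8862 genes). Signs changed there without WT 2 and WT 4 for Ttr (-3.14), Kl (-1.20), Aqp1 (-1.80), Folr1 (-2.76), Enpp2 (-0.56) and Sostdc1 (-1.81), and for Tol over WT in cerebellum for Kl (0.66), Kcnj13 (1.24) and Enpp2 (0.42). The interaction then turned positive for Ttr (0.0399), Kl (1.06), Aqp1 (2.21), Folr1 (2.11), Kcnj13 (0.91), Clic6 (0.23), Enpp2 (0.34) and Sostdc1 (2.155), and was -0.54 for Slc4a5 and 1.73 for Otx2, none of them called. With 1 library left out, Otx2 ranged from -0.40 (without cerebellum Tol 2) to 1.32 in cerebellum and from -0.39 to 1.30 in the interaction, and in cerebrum Ttr ranged from -2.105 to 0.39 (without WT 2) and Clic6 from -1.51 to 0.75 (without WT 3), none of them called. In thymus, 1 member was called by DESeq2 (1266 of 16248 genes were). Between 0 and 2 members were called when 1 library was left out (2 without Tol 1, with 2978 of 16370 genes). The count of cerebrum correlations was 1, with 0 to 2 when 1 library was left out and 0 without the 2 farthest. For the ratio to Ttr, the count of 0 became 1 with Folr1 in place of Ttr (Otx2, adjusted p = 0.027, exact permutation) and 4 without WT 2 and WT 4, where the 2 libraries highest in Ttr were removed from 1 organ after their values were seen, which raises each ratio by construction, so that this count is no evidence of a difference. The other causes were not tested. Replicate numbers are shared between groups, but the labels do not say that they mark pairs. Deviations of same-numbered WT cerebrum and cerebellum libraries correlated at 0.10, 0.02, 0.02 and 0.10, and 5 of 8 libraries correlated best with their own number. The replicate block left 4 members called between organs (Kcnj13, Clic6, Otx2 and Slc4a5) and 0 in each Tol comparison and in the interaction. The alternatives planned for the cerebellum correlation were not run, because its libraries form separate clusters. Depth limits Aqp1, Folr1, Kcnj13, Otx2, Slc4a5 and Sostdc1 in the cerebrum, where they had at most 18 counts.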
